A study of Gallus gallus with 8 samples.

Results

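Hedgehog proteins are secreted signals that pattern the notochord, the somites and the growth plate. They bind the membrane receptor PTCH1, which otherwise holds the transducer SMO inactive, and SMO then acts through the GLI transcription factors at the primary cilium. GLI1, PTCH1 and the ligand-binding decoy HHIP are themselves common targets of the pathway. In cartilage that turns to bone, IHH is known as the ligand of prehypertrophic chondrocytes, whereas SHH is the ligand of the notochord. The genes described here are the 8 rows of the count table whose symbols are *SHH*, *IHH*, *PTCH1*, *SMO*, *GLI1*, *GLI2*, *GLI3* and *HHIP*, of 24154 genes in all. They were chosen by name, with earlier results of these data known. All 8 symbols were found, and 7 of them passed the filter on low counts, the exception being *SHH*.

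The data were RNAseq counts of polyA-selected mRNA from intervertebral discs (IVDs) of the tails of untreated 10-wk-old chickens, with 4 libraries from fusing pygostyle IVDs and another 4 from free caudal IVDs. Fusing discs lie in the pygostyle, where vertebrae join after hatching, and the sample labels call them degrading. Free discs lie between vertebrae that stay separate, and the labels call them permanent. The breed is given as Tetra in the study's methods but as white leghorn in the labels, and the discs came from 8 birds, without a statement in the sources used here of whether any bird gave discs of both kinds. Library totals ran from 5682402 counts in fusing replicate 2 to 18434459 in fusing replicate 4. The quasi-likelihood test of edgeR was run over 13639 genes, and calls needed both an adjusted p (Benjamini-Hochberg) under 0.05 and more than a 2-fold difference. Levels are in CPM, counts scaled to library size with TMM factors, and fold changes are log2 values of fusing over free IVDs, each beside its standard error (SE).

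Of the 7 tested genes, *GLI1* and *PTCH1* were called higher in fusing pygostyle IVDs, and *HHIP* and *SMO* were called lower. *IHH* had the largest fold change of the 7 but did not pass the test. *GLI2* and *GLI3* were not called. Over all tested genes, 13.2% were called higher and 9.64% lower, so calls in either direction were common in this comparison. These are bulk samples, in which fewer cells of a type and less RNA per cell cannot be told apart.

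The ligand *SHH* was at the limit of detection. The files place it on chromosome 2 of the GRCg6a build, at 8166226 to 8175850. Its counts were 0, 0, 1 and 2 in free replicates 1 to 4 and 1, 1, 0 and 0 in fusing replicates 1 to 4. A count of 0 allows up to 3 counts in a library, and the 5 counts in all came from 4 libraries. Scaled to library size, the fusing to free ratio was 0.505. Its exact 95% Poisson interval, 0.0421 to 4.40, takes in counting error alone. A difference in *SHH* was therefore not detectable at this depth. Other genes listed as markers of the notochord and the nucleus pulposus were also scarce in part. *KRT18* had counts in free replicate 2 only, and *KRT8* averaged 0.191 CPM in fusing and 0.313 CPM in free IVDs. *FOXA2* averaged 20.8 CPM in fusing and 23.5 CPM in free IVDs. Of the 11 listed markers, 10 were found under these names and 6 were tested. None was called higher and 2 lower, beside 13.2% and 9.64% of all tested genes. Their summed level was 229 to 649 CPM in free and 154 to 441 CPM in fusing libraries. *CA12* made the largest part of each sum, with 148 to 535 CPM in free and 105 to 309 CPM in fusing libraries.

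*IHH*, the ligand of differentiating cartilage, lies on chromosome 7 of GRCg6a, from 22301660 to 22309634. It had 17.9, 0.271, 79.1 and 29.9 CPM in free replicates 1 to 4. In fusing replicates 1 to 4 it had 177, 81.7, 285 and 155 CPM. All 4 fusing libraries lay above all 4 free libraries, as they did in 19.6% of all tested genes, although fusing replicate 2 was only just above free replicate 3. Free replicate 2 stood apart with 3 *IHH* counts (exact 95% Poisson interval 0.619 to 8.77). As a fold range, the free libraries were therefore spread far more widely (292-fold) than the fusing ones (3.49-fold). In CPM, the SD was 33.8 in free and 84.1 in fusing IVDs. The log2 fold change was 2.46 (SE 0.97), or 5.50-fold, and edgeR did not call it (adjusted p = 0.0718). The exact permutation p on log2 CPM was 0.0286, the smallest that 4 libraries against 4 allow (two-sided). It restates the lack of overlap and is not adjusted for the number of genes. *PTCH1*, *SMO*, *GLI1*, *GLI3* and *HHIP* had the same value. *IHH* was called without free replicate 2, at 2.04 (edgeR adjusted p = 0.0248), without free replicate 3, at 3.44 (0.0259), and with the replicate number as a block, at 3.21 (0.0218), but not with a block by the number within each sample code, at 4.13 (0.0676). Over the 8 fits that each left out 1 library, its edgeR adjusted p ran from 0.0248 to 0.153. The remaining Hedgehog ligand gene, *DHH*, was not tested, its counts summing to 26 in fusing and 11 in free IVDs.

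**Figure D1:**
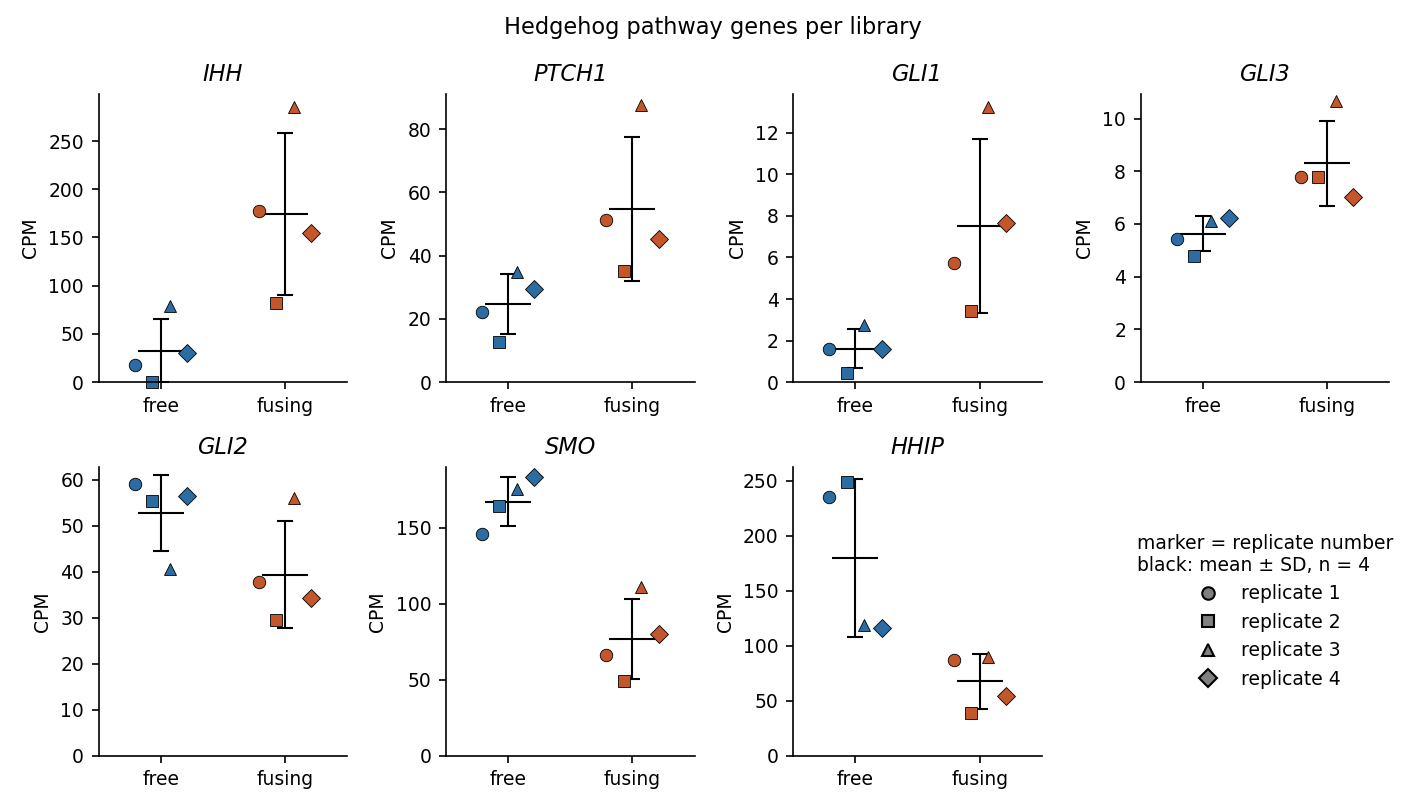
CPM of the 7 tested Hedgehog genes in each library (y axis, starting at 0, a scale of its own per gene) by tissue (x axis). Symbols give the replicate number, and black bars the mean ± SD of 4 libraries, with the SD of *IHH* in free IVDs drawn down to 0 only. *IHH*, *PTCH1*, *GLI1* and *GLI3* lie higher in all fusing libraries, *SMO* and *HHIP* lower, and *GLI2* overlaps.

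The receptor *PTCH1*, on chromosome Z of GRCg6a from 41780685 to 41851489, had 22.1, 12.8, 34.7 and 29.6 CPM in free replicates 1 to 4. Its level in fusing replicates 1 to 4 was 51.4, 35.1, 87.5 and 45.4 CPM. The tissues did not overlap, though fusing replicate 2 and free replicate 3 were nearly level. *PTCH1* rose from 24.8 ± 9.53 (SD, n = 4) to 54.9 ± 22.8 CPM (SD, n = 4), which is 1.15 on the log2 scale (SE 0.35, edgeR adjusted p = 0.0266). This call is close to its limits. It was lost without free replicate 1 (1.09, edgeR adjusted p = 0.0671), free replicate 2 (0.93, 0.0484), fusing replicate 1 (1.16, 0.0524) or fusing replicate 3 (0.81, 0.0682), and with a block by the number within each sample code (1.51, 0.0517). A noncoding neighbor, LOC112530576, overlaps 217 exonic bases of *PTCH1*, or 2.78% of its length, and its counts summed to 193 in fusing and 224 in free IVDs against 3413 and 1153 for *PTCH1*.

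*SMO*, the membrane protein that carries the signal inward, lies on chromosome 1 of GRCg6a, from 1339489 to 1348014. It had 146, 164, 175 and 183 CPM in free replicates 1 to 4, the most even level of the 7 genes in free IVDs. In fusing replicates 1 to 4 it had 66.2, 48.9, 111 and 79.8 CPM, all below the free libraries, as in 20.2% of all tested genes. *SMO* fell from 167 ± 16.1 (SD, n = 4) to 76.5 ± 26.3 CPM (SD, n = 4), which is -1.13 on the log2 scale (SE 0.23, edgeR adjusted p = 0.00425). Without fusing replicate 2 it was -0.97 (edgeR adjusted p = 0.00667), within the limit of 2-fold and so no longer called, and likewise -0.97 with the block by sample code number (0.0163).

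*HHIP*, the decoy that binds Hedgehog ligands at the cell surface, lies on chromosome 4 of GRCg6a, from 30847842 to 30925059. It had 235, 249, 119 and 116 CPM in free replicates 1 to 4. The values for fusing replicates 1 to 4 were 86.7, 38.5, 90.0 and 54.4 CPM. The free libraries formed a high pair, replicates 1 and 2, and a lower pair, and every fusing library lay below both. *HHIP* fell from 180 ± 71.8 (SD, n = 4) to 67.4 ± 25.1 CPM (SD, n = 4), which on the log2 scale is -1.41 (SE 0.35, edgeR adjusted p = 0.0111), and was called in each of the 8 fits that left out 1 library. It shares 266 exonic bases (2.61%) with *ANAPC10*, which was not called (log2 fold change 0.46, edgeR adjusted p = 0.405). Thus among the genes that the pathway itself commonly switches on, *GLI1* and *PTCH1* differed upward and *HHIP* downward between the same libraries.

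*GLI1*, the GLI factor that acts as an activator, had the lowest mean CPM of the 7 tested genes in both tissues, not scaled to gene length. It had 1.62, 0.452, 2.74 and 1.61 CPM in free replicates 1 to 4, from 5 to 31 counts. In fusing replicates 1 to 4 it had 5.72, 3.44, 13.2 and 7.67 CPM, from 27 to 175 counts. Its groups did not overlap. *GLI1* rose from 1.60 ± 0.934 (SD, n = 4) to 7.52 ± 4.19 CPM (SD, n = 4), a 4.68-fold difference, or 2.23 on the log2 scale (SE 0.54, edgeR adjusted p = 0.00968). It was called in each of the 8 fits that left out 1 library, at 1.80 to 2.60, unlike *PTCH1*, which was called in 4 of them, and *IHH*, which was called in 2.

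*GLI2*, the main activator downstream of SMO, and *GLI3*, best known as a repressor when no ligand is present, were not called. *GLI2* lies on chromosome 7 of GRCg6a, from 25774748 to 25958144, and *GLI3* on chromosome 2, from 50696713 to 50908081. *GLI2* had 59.0, 55.3, 40.7 and 56.4 CPM in free replicates 1 to 4 and 37.7, 29.5, 56.1 and 34.3 CPM in fusing replicates 1 to 4. Fusing replicate 3 lay among the free libraries, whereas free replicate 3, the lowest of its tissue, was still above fusing replicates 1, 2 and 4. The log2 fold change of *GLI2* was -0.42 (SE 0.21, edgeR adjusted p = 0.135), and 0.26 when library totals replaced the TMM factors. *GLI3* had 5.43, 4.79, 6.10 and 6.22 CPM in free replicates 1 to 4 and 7.77, 7.77, 10.7 and 7.01 CPM in fusing replicates 1 to 4. These ranges did not overlap but lay close, and the difference of 0.56 on the log2 scale (SE 0.19, edgeR adjusted p = 0.0458) stayed within 2-fold.

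The scaling of the libraries bears on these directions. With library totals in place of the TMM factors, the median of all genes shifted by 0.69 on the log2 scale, and 87.0% of the called genes were higher and 13.0% lower, against 57.7% and 42.3% with TMM. In that scaling *HHIP* (-0.72) and *SMO* (-0.46) kept their sign but were not called, while *IHH* (3.04), *PTCH1* (1.78), *GLI1* (2.84) and *GLI3* (1.23) were called higher. Relative to the shift of the median, the order of the 7 genes was unaltered, with *IHH* and *GLI1* at the top and *HHIP* at the bottom.

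**Figure D2:**
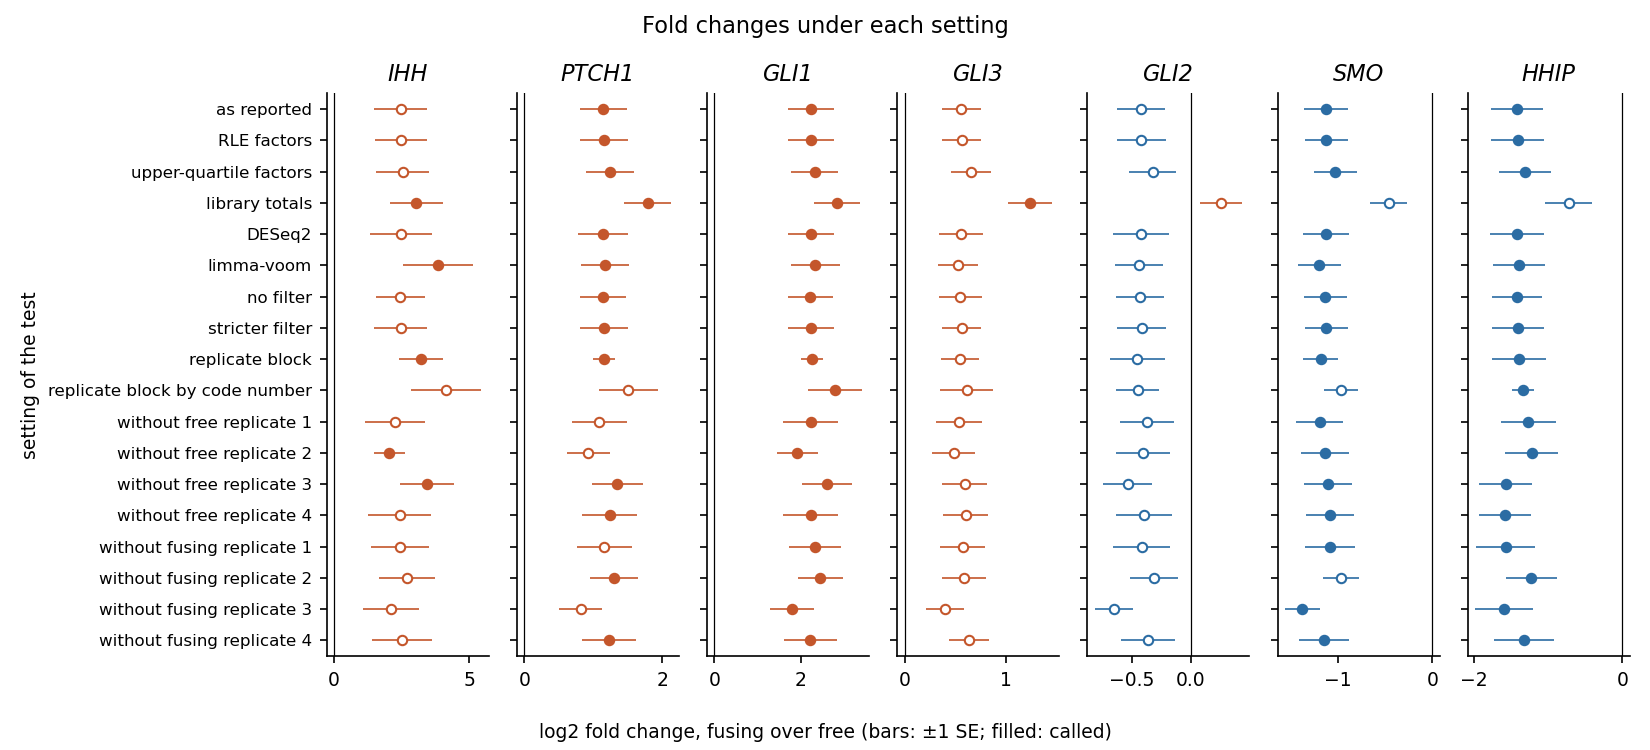
Log2 fold change of fusing over free IVDs (x axis, ±1 SE) of 7 Hedgehog genes under each setting of the test (y axis). Filled points were called at an adjusted p under 0.05 and over 2-fold. *GLI1* is filled under every setting shown, *IHH* under 5, and *SMO* and *HHIP* move toward 0 with library totals.

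Ratios between genes of the same library do not depend on how libraries are scaled. They are given per kb of exonic length, for pairs chosen after the values were seen, and are a description without a test. The ratio of *PTCH1* to *SMO* was 0.0627, 0.0325, 0.0821 and 0.0671 in free replicates 1 to 4 and 0.322, 0.298, 0.327 and 0.236 in fusing replicates 1 to 4. The receptor was thus 5.06-fold higher against its transducer in fusing IVDs by the geometric means, with a wide gap between the tissues. The ratio of *PTCH1* to *HHIP* ran from 0.0674 to 0.381 in free and from 0.774 to 1.27 in fusing libraries. The ratio of *GLI1* to *GLI2* ran from 0.0128 to 0.105 in free and from 0.182 to 0.369 in fusing libraries. That of *GLI2* to *GLI3* went the other way, from 7.74 to 13.4 in free and from 4.42 to 6.11 in fusing libraries. By contrast, the ratio of *HHIP* to *SMO* overlapped, with geometric means of 0.322 in free and 0.276 in fusing IVDs. Of the 11 ratios formed, *GLI1* to *GLI3* also overlapped (0.171 to 0.816 in free, 0.804 to 2.26 in fusing libraries). So did *IHH* to *RUNX2* (0.527 to 4.01 in free, 2.75 to 6.38 in fusing libraries). *IHH* to *HHIP* and *GLI1* to *PTCH1* were higher in all fusing libraries. The ratio of *IHH* to *PTCH1* was 0.0852 to 9.19 in free and 9.38 to 13.9 in fusing libraries, where free replicate 2 gave the low end.

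**Figure D3:**
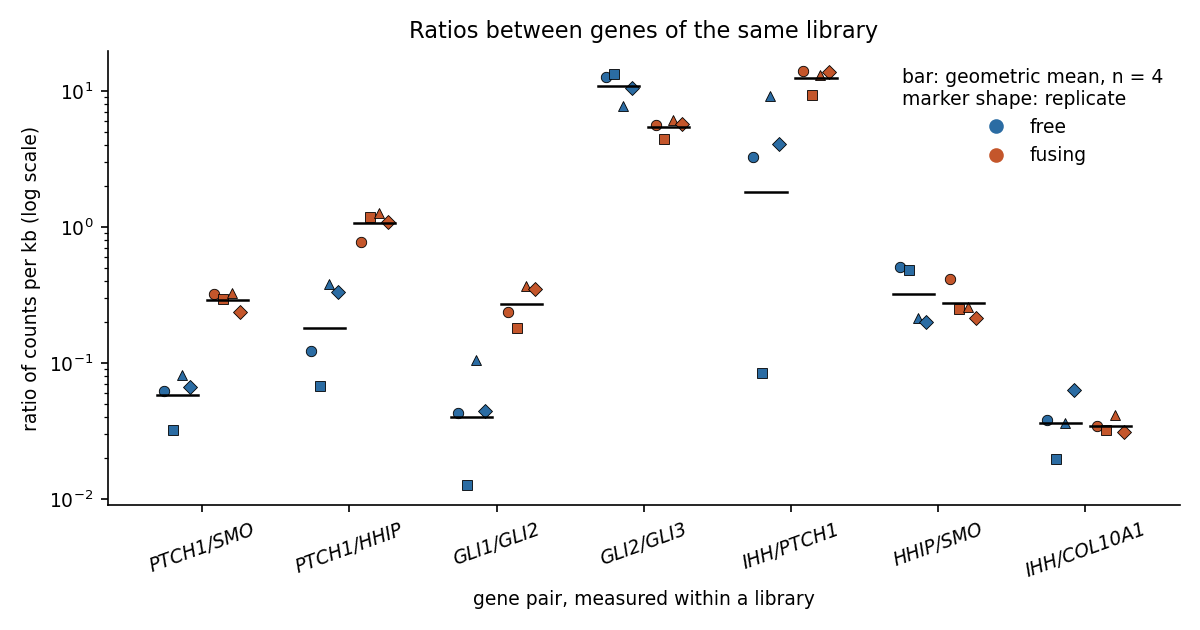
Ratio of counts per kb between pairs of genes (x axis) within each library, on a log y axis. Blue symbols are free and orange symbols fusing libraries, the shape gives the replicate number and bars are geometric means of 4. The *PTCH1* ratios and *GLI1* to *GLI2* are higher and *GLI2* to *GLI3* lower in all fusing libraries, while *HHIP* to *SMO* and *IHH* to *COL10A1* overlap.

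Levels per length put the genes in a different order in each tissue. In free IVDs, *SMO* led with 51.7 ± 4.97 CPM per kb (SD, n = 4), above *HHIP* in all 4 libraries. *HHIP* (17.6 CPM per kb) and *IHH* (16.4) could not be ordered, since *HHIP* was the higher in 2 of 4 libraries. *GLI2* (6.65), *PTCH1* (3.18), *GLI3* (0.610), *GLI1* (0.315) and *SHH* (0.0495) followed, each above the next in all 4 libraries. In fusing IVDs, *IHH* led with 90.3 ± 43.5 CPM per kb (SD, n = 4) and was above *SMO* (23.7) in all 4 libraries. *PTCH1* (7.03) and *HHIP* (6.62) were level within their spread, with *PTCH1* the higher in 3 of 4 libraries. *GLI2* (4.95) came next, then *GLI1* (1.48) and *GLI3* (0.899), with *GLI1* the higher in 3 of 4 libraries, and *SHH* (0.0296) was last.

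Libraries of 1 tissue also differed from each other in a shared way. In fusing replicate 3, all 7 tested genes were at their highest among the fusing libraries, whereas 28.2% of all tested genes were. In fusing replicate 2, the shallowest library, 6 of the 7 were at their lowest, against 26.7% of all tested genes. Among the free libraries, *IHH*, *PTCH1*, *GLI1* and *GLI3* were lowest in replicate 2, where *HHIP* was at its highest. The summed level of the listed chondrocyte markers was highest in replicate 3 of both tissues, at 265476 CPM in free and 188058 CPM in fusing IVDs. It was lowest in fusing replicate 2 at 68008 CPM and free replicate 1 at 173596 CPM. *COL2A1* made the largest part of each sum, with 102136 CPM in free replicate 1 and 176738 CPM in free replicate 2. Among free libraries, *COL2A1*, *SOX9* and *COMP* were lowest in replicate 1, and all other found chondrocyte markers in replicate 2. The listed heterophil markers summed to 4618, 6991, 1590 and 7560 CPM in fusing replicates 1 to 4. The listed red cell markers summed to 14835, 32571, 6957 and 33007 CPM there, so both sums were lowest in replicate 3. Among free libraries, the red cell sum was also lowest in replicate 3, at 3315 CPM, but the heterophil sum in replicate 4, at 71.6 CPM. The parts of cartilage and blood cell content in these library differences were not tested.

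Listed genes of hypertrophic chondrocytes were in part called higher in the same libraries. Collagen X (*COL10A1*), the defining matrix gene of these cells, had 1613, 47.3, 7558 and 1638 CPM in free replicates 1 to 4. Fusing replicates 1 to 4 gave 17839, 8861, 23692 and 17200 CPM. Within each tissue the libraries had the same order for *COL10A1* as for *IHH*, with replicate 2 lowest and replicate 3 highest. *COL10A1* was likewise not called (log2 fold change 2.64, edgeR adjusted p = 0.0776). The ratio of *IHH* to *COL10A1* per kb was 0.0199 to 0.0634 in free and 0.0312 to 0.0417 in fusing libraries, with geometric means of 0.0364 and 0.0346, and the free range enclosed the fusing range. Of the 8 listed hypertrophic markers, *IHH* included, 5 were called higher and none lower, beside 13.2% and 9.64% of all tested genes. Their median fold change was 2.36 on the log2 scale, against 0.013 over all tested genes. Their summed level was 223 to 9200 CPM in free and 12320 to 28334 CPM in fusing libraries, the low end being free replicate 2. *PANX3* (2.62), *MEF2C* (2.30), *ALPL* (2.27) and *PTH1R* (1.55) were among those called. Of 11 osteoblast markers, 9 were called higher and none lower, against the same 13.2% and 9.64% of all tested genes. They summed to 19.9 to 511 CPM in free and 2046 to 2591 CPM in fusing libraries. *ALPL* and *RUNX2* stand on both lists, so the lists are not independent, and *ALPL* gave 272 of the 511 CPM in free replicate 3. The part of these cell types in the levels of *IHH*, *PTCH1* and *GLI1* was not tested.

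**Figure D4:**
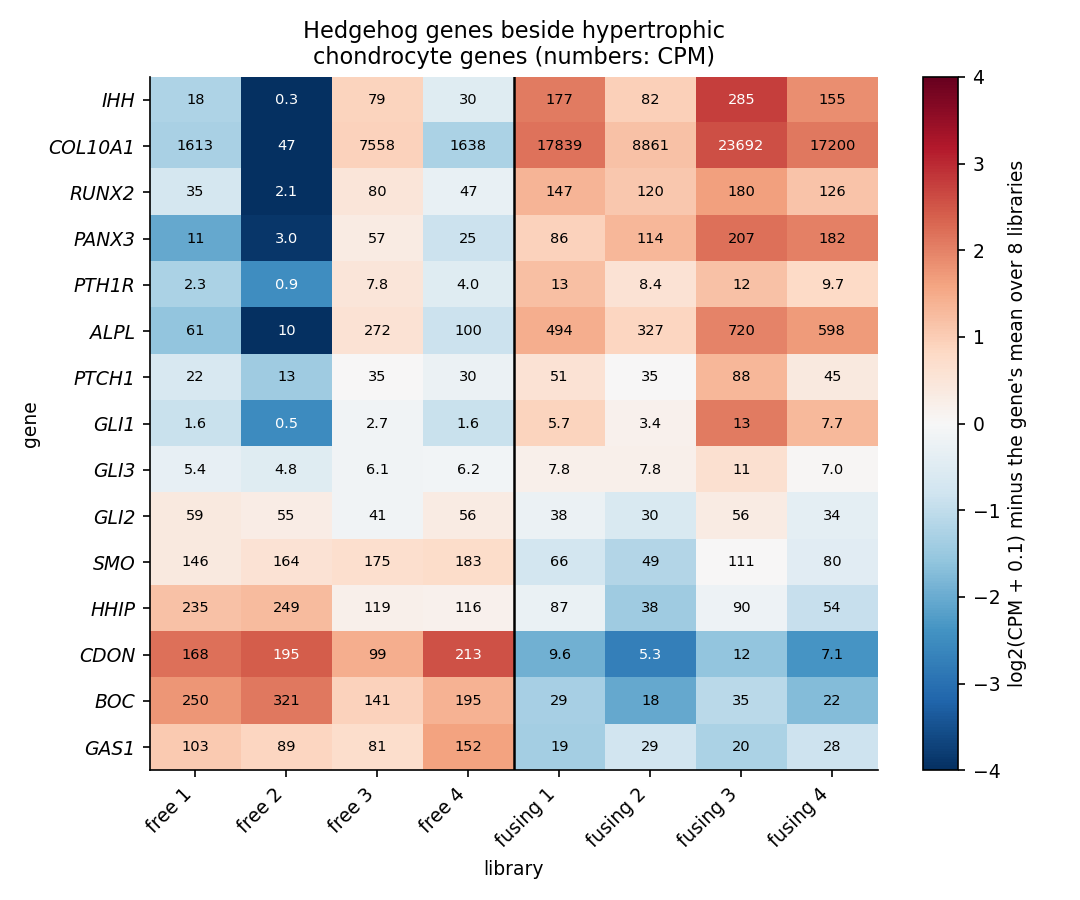
Heat map of Hedgehog genes and hypertrophic chondrocyte genes (rows) over 8 libraries (columns), colored by log2(CPM + 0.1) minus the mean of the gene over the libraries, with the CPM printed in each cell. *COL10A1* and *RUNX2* follow *IHH* down to free replicate 2 and up to fusing replicate 3, and *CDON*, *BOC* and *GAS1* show the opposite tissue difference.

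Genes most like each Hedgehog gene were ranked by Pearson's r of log2 CPM over the 8 libraries among the 10528 genes that averaged 5 CPM or more. Such values are a description, since the tissue difference is shared by many genes. With or without the tissue means, they are also the highest of 10528 genes over only 8 libraries. How high such picked values run by chance was not tested. Nearest to *IHH* were *DLX5* (r = 0.996), *RUNX2* (0.995) and *PTPRK* (0.994), of which the first pair are transcription factors of skeletal cells. With the tissue means taken out, *EXTL1* (r = 0.997), *HTR7* (0.995) and *DLX5* (0.993) were nearest. *PTCH1* was nearest to *CYP2D6* (r = 0.987), *SOX8* (0.981) and *PIEZO2* (0.978), and with the tissue means taken out to *PAPSS2* (0.985), *SCRN1* (0.982) and *COL11A1* (0.982). *GLI1* was nearest to *PCOLCE2* (r = 0.992), LOC415478 (0.988) and *SATB1* (0.987), and with the tissue means taken out to *CNIH1* (0.989), *IL17D* (0.985) and again *PCOLCE2* (0.982). *SMO* was nearest to *GNG12* (r = 0.993), *TBC1D20* (0.991) and *STX5* (0.991), and with the tissue means taken out to *ARMC9* (0.991), LOC101749388 (0.989) and *FZD9* (0.987). *HHIP* was nearest to *IFT140* (r = 0.986) and *IFT52* (0.985), which encode proteins of transport in the primary cilium, and to *GGT7* (0.984). With the tissue means taken out, neither of those transport genes remained among the nearest of *HHIP*, which were *GGT7* (0.987), *TAF1B* (0.983) and *MRPL22* (0.980). *GLI2* was nearest to *TNRC18* (r = 0.968), *SUSD5* (0.966) and *FAM168A* (0.955), and with the tissue means taken out to *KIF3C* (0.974), *PBX3* (0.968) and *ATP10A* (0.959). *GLI3* was nearest to *TRAPPC9* (r = 0.979), *ZNF608* (0.978) and *NNT* (0.972), and with the tissue means taken out to *CREB3L2* (0.986), *NUDCD2* (0.978) and *SASH1* (0.976).

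The other pathway genes were taken from a list of 70 names, of which 68 were found and 66 tested. Of these, 8 (12.1%) were called higher and 13 (19.7%) lower, beside 13.2% and 9.64% of all tested genes, and the median log2 fold change was -0.38. Among the genes called lower were 3 coreceptors, which bind Hedgehog ligands beside PTCH1. *CDON* had 168, 195, 98.8 and 213 CPM in free replicates 1 to 4 and 9.61, 5.35, 12.03 and 7.06 CPM in fusing replicates 1 to 4. Every fusing library was thus far below every free library, and *CDON* fell by 4.30 on the log2 scale (SE 0.32, edgeR adjusted p = 7.72e-05), or 19.7-fold. *BOC* had 250, 321, 141 and 195 CPM in free replicates 1 to 4 and 29.3, 17.8, 34.8 and 22.3 CPM in fusing replicates 1 to 4. It fell by 3.12 on the log2 scale (SE 0.30, edgeR adjusted p = 0.000139). *GAS1*, another coreceptor, had 103, 89.1, 81.2 and 152 CPM in free replicates 1 to 4 and 19.0, 28.8, 20.4 and 27.9 CPM in fusing replicates 1 to 4. It fell by 2.15 on the log2 scale (SE 0.23, edgeR adjusted p = 0.000212). These 3 genes were called lower under every setting tried, library totals included. *LRP2*, a large endocytic receptor that also binds ligand, was not called (log2 fold change 0.89, edgeR adjusted p = 0.0651). Its fusing libraries all lay above the free ones, and it was called higher with library totals (1.57, edgeR adjusted p = 0.00236).

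Most listed genes of fibrous connective tissue differed between the tissues in the same direction as the coreceptors. Of 10 listed annulus and fibrous markers, 8 were called lower and 1, *THBS4*, higher, beside 9.64% and 13.2% of all tested genes. Their median was -2.77 on the log2 scale. Their summed level was 126159 to 343509 CPM in free and 32545 to 47664 CPM in fusing libraries, mostly from the collagen I genes. *DCN* fell by 3.09, *LUM* by 3.83 and *COL1A1* by 2.66 on the log2 scale. In the other direction, all 11 heterophil and all 9 macrophage markers were called higher in fusing pygostyle IVDs, beside 13.2% of all tested genes. Their medians were 4.57 and 2.64, although *MPO* overlapped, with 54.9 CPM in fusing replicate 3 and 69.7 CPM in free replicate 1. No listed endothelial marker of 10 was called by edgeR, beside 22.8% of all tested genes called in either direction, and the median was -0.0039. The endothelial sum was 181, 172, 530 and 477 CPM in free replicates 1 to 4 and 262 to 301 CPM in fusing libraries. Free replicates 1 and 2 thus lay below, and 3 and 4 above, every fusing library. The part of these cell types in the levels of *CDON*, *BOC*, *GAS1*, *HHIP* and *SMO* was not tested.

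Genes of ligand release and binding differed in both directions. *GPC3*, a glypican that in the mouse restrains Hedgehog signaling by binding the ligand, had 0.452, 1.81, 6.54 and 0.536 CPM in free replicates 1 to 4. In fusing replicates 1 to 4 it had 30.4, 30.6, 28.0 and 43.5 CPM, so that it was low in every free library and highest in fusing replicate 4. *GPC3* rose by 3.84 (SE 0.68, edgeR adjusted p = 0.00220), and by 5.16 without free replicate 3. *SCUBE3* (2.70) and *SCUBE2* (1.33), secreted proteins of a family that helps release the lipid-bound ligand, and *DISP3* (1.86), of the family of the release channel *DISP1*, were also called higher. *SCUBE3* rose by 3.59 without free replicate 3. *SCUBE1* was called lower (-1.19, edgeR adjusted p = 0.0348), but not when free replicate 1 (-0.98) or 2 (-1.08), or fusing replicate 2 (-1.20), 3 (-1.26) or 4 (-0.996), was left out, nor with library totals (-0.50). *DISP1* (-0.95), the acyltransferase *HHAT* (-0.30) and the heparan sulfate synthase *EXT1* (-0.20) were not called, although *DISP1* was without free replicate 2 (-1.08) or fusing replicate 1 (-1.14), and *DISP2* was not tested, its counts summing to 19 in fusing and 21 in free IVDs. *HHIPL1*, which resembles *HHIP* in sequence, fell by 4.55 on the log2 scale (SE 0.33, edgeR adjusted p = 6.81e-05), from 112 ± 31.0 (SD, n = 4) to 4.65 ± 1.92 CPM (SD, n = 4), whereas *HHIPL2* was not called (0.038, edgeR adjusted p = 0.957).

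Inside the cell, of 16 tested genes that pass the signal from SMO to GLI, 1 (6.25%) was called lower and none higher by edgeR, beside 9.64% and 13.2% of all tested genes. It was *SPOPL* (-1.28, edgeR adjusted p = 0.000340), a relative of the ubiquitin ligase adaptor *SPOP*, and it was not called with library totals (-0.58). At an edgeR adjusted p under 0.05 but within 2-fold, *EVC* (-0.91), *EVC2* (-0.83), *STK36* (-0.64) and *PRKACB* (-0.38) were lower and *GRK2* (0.62) higher. *EVC* was called without free replicate 2 (-1.02) or fusing replicate 3 (-1.03), and *GRK2* with library totals (1.33). *SUFU*, the inhibitor that binds GLI proteins, had 28.2 ± 3.29 CPM (SD, n = 4) in free and 28.7 ± 2.44 CPM (SD, n = 4) in fusing IVDs, a log2 fold change of 0.028 (edgeR adjusted p = 0.879). Of 17 tested genes of the primary cilium, the organelle in which the signal is read, 1 (5.88%) was called higher, beside 13.2% of all tested genes, and none lower. It was *INTU* (1.60, edgeR adjusted p = 0.00259), which is needed for cilium assembly. Several cilium genes were lower at an edgeR adjusted p under 0.05 but within 2-fold, from *IFT122* (-0.44) to *TCTN1* (-0.82). The median over the cilium genes was -0.38.

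Of 18 tested targets and growth plate partners, 3 (16.7%) were called higher and 7 (38.9%) lower, beside 13.2% and 9.64% of all tested genes, and the median was -0.60 on the log2 scale. *PTH1R*, the receptor of the parathyroid hormone-related protein that acts in a loop with IHH in the growth plate, rose by 1.55 (edgeR adjusted p = 0.0385). That call was lost when free replicate 1 (1.36) or 4 (1.57), or any of fusing replicates 1 to 4 (1.44, 1.65, 1.46 and 1.60), was left out, and without free replicate 3 the value was 2.20. *PTHLH*, the ligand of that loop, was 1.73-fold lower (log2 fold change -0.79, edgeR adjusted p = 0.0237) and so within the limit of 2-fold. *FOXC2* (2.17) and *PRDM1* (1.56) were the others called higher. *PRDM1* lost its call when free replicate 2 (1.42) or 4 (1.64), or any of fusing replicates 1 to 4 (1.43, 1.59, 1.55 and 1.61), was left out. The forkhead genes *FOXF1* (-1.36), *FOXF2* (-2.67) and *FOXD1* (-1.62), the sclerotome genes *PAX1* (-1.53), *PAX9* (-1.24) and *NKX3-2* (-1.29), and the survival gene *BCL2* (-2.31) were called lower. *FOXF2* was at -3.41 without fusing replicate 1. With library totals, *FOXF1*, *FOXD1*, *PAX1*, *PAX9* and *NKX3-2* kept their sign but were not called, at -0.71, -0.94, -0.86, -0.58 and -0.64, and *FOXF2* (-2.02) and *BCL2* (-1.63) still were. *NKX3-2* was also not called with a block by the number within each sample code (-1.10, edgeR adjusted p = 0.0510).

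**Figure D5:**
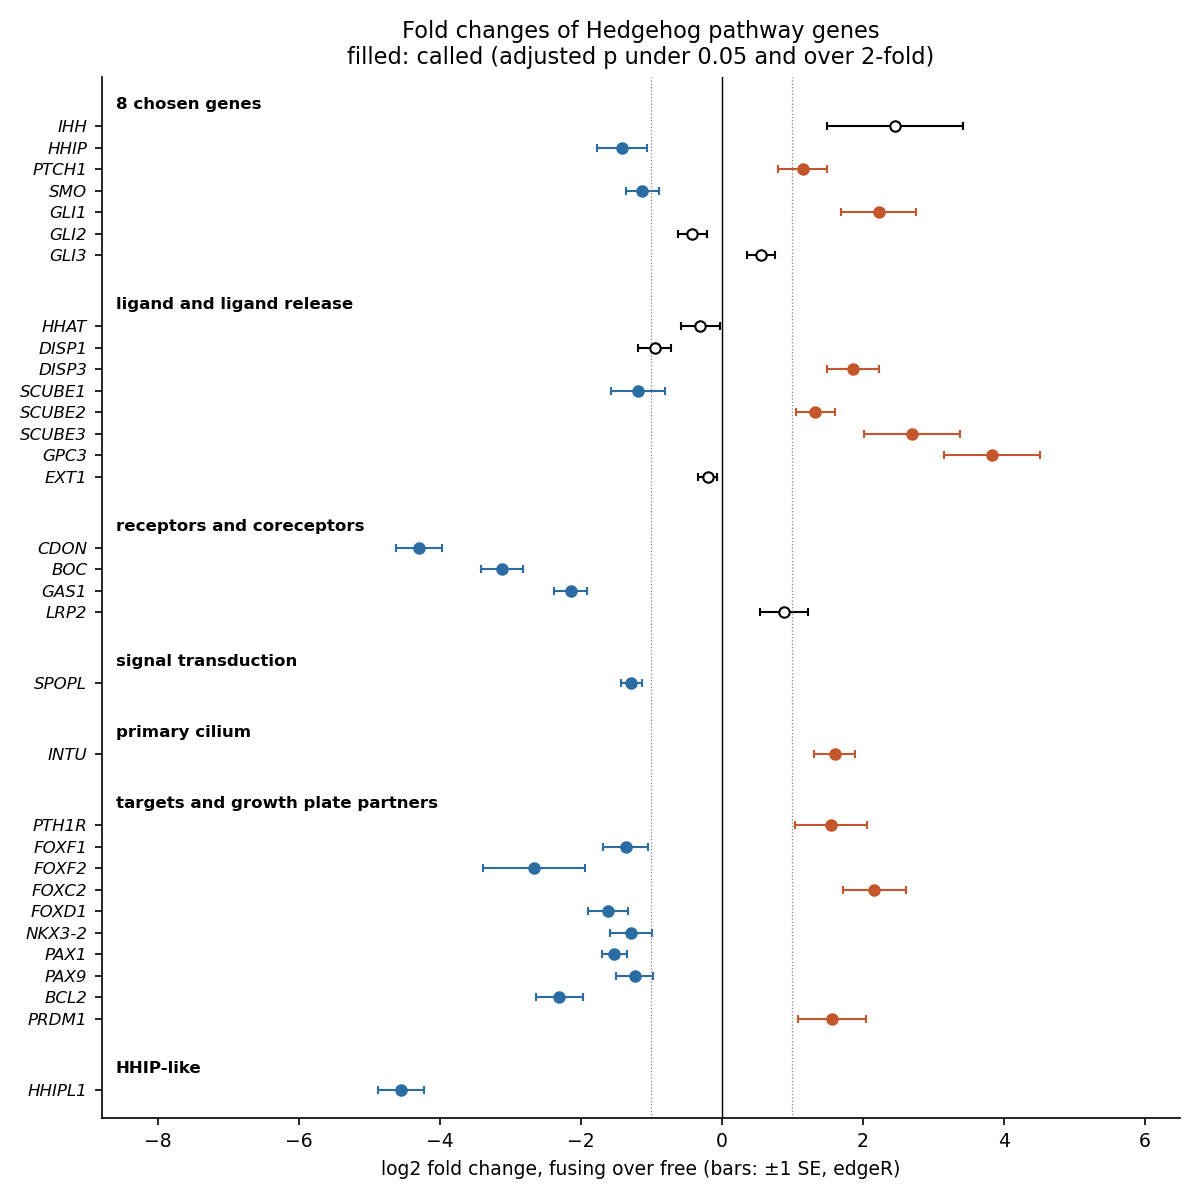
Log2 fold change of fusing over free IVDs (x axis, ±1 SE by edgeR) for the 7 tested Hedgehog genes and, below them, pathway genes that were called or that encode ligand-handling proteins and coreceptors, by role (y axis). Filled points were called and dotted lines mark 2-fold. *HHIPL1*, *CDON* and *BOC* lie furthest to the left and *GPC3* furthest to the right.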

How the data were processed

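RNAseq libraries of fusing and free IVDs (4 each) were unstranded and polyA-selected. The authors aligned untrimmed reads to GRCg6a with STAR, counted them per gene with featureCounts, unstranded and without multimapped reads, and deposited whole-number counts without normalization. Genes that overlap are less certain. The deposited table of the authors' own DESeq2 comparison (means, fold changes and p-values) was not used.

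edgeR 4.0.16 (R 4.3.3) compared the tissues with TMM factors and no further terms after filterByExpr (minimum count 10, minimum total 15). SE came from the test statistic, and log2 CPM used a prior count of 2. A gene below the filter is given by its summed counts, with an exact Poisson interval. Exact permutation tests used 70 splits, two-sided. The test was tried on simulated counts. Positions are those of the deposited annotation, and chromosome names were matched to a RefSeq gene table of GRCg7b by shared symbols, which left *GLI1* without one.

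Members and lists were chosen with earlier results of these data known. The text names the 8 genes, called genes of the pathway list with its ligand-handling and receptor genes, up to 4 genes of a marker list and the 3 most alike genes per member, and 1 gene that this rule takes in is not reported here. No pair of libraries in a tissue was alike within sampling noise. The study calls them biological replicates, but the labels name no birds, so p-values measure the spread between these samples, which may be partly technical. Replicate numbers in the titles are shared by the tissues, and deviations of same-numbered libraries correlated at 0.242, 0.159, 0.115 and 0.253. Among libraries of unlike replicate number, only free replicate 2 and fusing replicate 3, which share code number 10, were compared (-0.0611). These values therefore cannot show that the numbers pair the samples. The numbers within the sample codes differ between free and fusing libraries for replicates 2 (10 and 11) and 3 (9 and 10). An alternative fit took the replicate numbers as a block all the same. Other alternatives were DESeq2 1.42.0, limma-voom (limma 3.58.1), RLE and upper-quartile factors, library totals, no filter, a stricter filter (1 CPM in 4 libraries), a block by the number within each sample code, and leaving out each library.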

Additional observations from a re-analysis of the deposited data

Results flagged for a closer look

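Values of single libraries that stood far from the other 3 of their tissue were sought by Dixon's ratio in 66 groups of 4, of which chance alone gives about 5%. There were 4 such values. *FOXD1* was at 23.8 CPM in free replicate 3, below 36.5 to 38.5 CPM in the others. *GPC3* was at 43.5 CPM in fusing replicate 4, above 28.0 to 30.6 CPM. *FOXF1* was at 16.1 CPM in fusing replicate 3, above 5.86 to 7.50 CPM, and *EXT1* was at 46.3 CPM in the same library, above 34.9 to 36.8 CPM.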

How the results depend on the processing

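Of 135 values under 9 settings, 118 were rated as unchanged. The values were fold changes of the tested Hedgehog genes and counts of called genes. A fold change was unchanged if it kept its direction and its side of the threshold. A count was unchanged if it stayed close to that of the main test, as did 2196 genes higher by DESeq2 against 1797. *GLI2*, not called in either, turned from -0.42 to 0.26 with library totals, and no called value reversed. *IHH* was called with library totals (3.04), limma-voom (3.84) and the replicate block (3.21). The replicate block changed no other call among the 8 genes. Library totals gave 4 of these genes higher and 0 lower (2 and 2 with TMM), 14 pathway genes higher and 6 lower (8 and 13), and 4179 genes higher and 624 lower (1797 and 1315), with *GLI3* at 1.23, *SMO* at -0.46 and *HHIP* at -0.72. With a block by the number within each sample code, *PTCH1* (1.51) and *SMO* (-0.97) were not called, which left 1 gene higher and 1 lower. That block follows 3 numbers shared by the tissues, with correlations of 0.242, -0.0611 and 0.253. Free replicate 3 (number 9) and fusing replicate 2 (number 11) have no library of the same number in the other tissue. These libraries therefore did not inform the fold changes of that fit, and lost calls cannot be credited to the pairing alone. Leaving out each library gave 2.04 to 3.44 for *IHH*, 0.81 to 1.35 for *PTCH1*, -1.38 to -0.97 for *SMO*, 1.80 to 2.60 for *GLI1*, -0.65 to -0.31 for *GLI2*, 0.40 to 0.63 for *GLI3* and -1.59 to -1.22 for *HHIP*, with 1 to 3 of the genes called higher and 1 to 2 lower. The causes were not tested. Counts were low for *SHH* in every library and, in free replicate 2, for *IHH* and *GLI1* (3 and 5 counts). The total of free replicate 2, 15842385 counts, was above those of free replicates 3 and 4 (13214205 and 12356953).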
